A study of Homo sapiens with 9 samples.

Results

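The genes described here encode the proteins of the large subunit of the cytosolic ribosome. They were taken by name, not by a threshold on measured values: 43 Ensembl gene IDs, for RPL3 to RPL38 and the stalk proteins RPLP0, RPLP1 and RPLP2, were looked up in a table of footprint counts for 19569 IDs, and all 43 were present. The set itself was chosen with earlier results of these data known. Ribosome profiling sequences the mRNA fragments protected by translating ribosomes, so that a gene's footprint count follows both mRNA amount and ribosome density. All 9 libraries were made from the clone E6-1 of Jurkat, a T lymphoblast line derived from a human leukaemia. The 3 groups, each with 3 biological replicates per the labels, were resting cells without antibody (0 h) and cells activated for 5 h or 12 h, on plates coated with anti-CD3 at 10 µg/mL, with anti-CD28 at 5 µg/mL in the medium. These antibodies engage the T cell receptor complex and its costimulatory receptor. All groups are of 1 cloned line, which divides without stimulation, so that "resting" means unstimulated. No library is of unstimulated cells at 5 h or 12 h, so that activation and time in culture cannot be told apart. The labelled cell type was not checked against T cell marker genes, which could not be matched to IDs here.

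The large subunit joins amino acids into protein. Its RNA forms the catalytic centre, and its proteins hold that RNA in shape, line the tunnel through which the new chain leaves, and form flexible stalks that recruit translation factors and move transfer RNA. Cells make ribosomal proteins in large and roughly balanced amounts, and the mRNAs of most of them begin with a 5′ terminal oligopyrimidine (TOP) tract, a C followed by an unbroken run of C and T. Translation of TOP mRNAs is known to depend on mTOR signalling, which T cell receptor stimulation engages.

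Start-site sequences show this shared feature, which the choice of genes did not use. RefSeq's promoter table (GRCh38.p14) held a start for 35 of the 43 genes. A TOP-like start was counted where the annotated first base was C and at least 4 more pyrimidines followed without a break, read on the strand of the gene only. Such a start was present in 25 of the 35 genes (71.4%), and in 21 of the 27 with a single annotated start. Counted per start, 53.2% of the 47 starts of these genes had one, against 4.07% of all 35116 annotated starts and 4.54% of the 22199 starts of protein-coding genes. The windows below run from 15 bases before the annotated start to 15 bases from it, with the pyrimidine tract that begins at the start in capitals. They are those of the stalk genes RPLP0 (chr12:120201097-120201126, minus strand), RPLP1 (chr15:69452803-69452832, plus), RPLP2 (chr11:809952-809981, plus) and RPL12 (chr9:127451392-127451421, minus), whose footprints went different ways. RPL24 (chr3:101686704-101686733, minus) had small changes at both times. RPL3 (chr22:39319609-39319638, minus) had a small change at 5 h only, and fell by 0.36 on the log2 scale at 12 h. RPL22 (chr1:6199581-6199610, minus), RPL14 (chr3:40457324-40457353, plus), RPL36 (chr19:5690280-5690309, plus) and RPL27 (chr17:42998404-42998433, plus) are among those with large falls.
RPLP0: gcgcgggcgcgaggcCCTTCTCTCgccagg
RPLP1: gtataggcgcgagagCCCCTTTCCTCagct
RPLP2: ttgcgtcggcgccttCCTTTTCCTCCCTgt
RPL12: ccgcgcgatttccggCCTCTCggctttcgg
RPL24: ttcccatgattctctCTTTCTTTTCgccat
RPL3: gtaaggccgaccggcCTCTaccggcgggat
RPL22: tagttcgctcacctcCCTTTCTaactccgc
RPL14: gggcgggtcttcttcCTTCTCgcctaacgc
RPL36: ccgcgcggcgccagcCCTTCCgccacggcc
RPL27: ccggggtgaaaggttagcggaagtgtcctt
All 4 stalk genes had a tract, although their footprints diverged. RPL3 had a tract of 4 bases, too short for the count used, and RPL27 had none at its annotated start. A match is a description of these letters at an annotated start, which need not be the start used in Jurkat cells.

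Library totals ranged from 4343515 to 18506509 counts, and the 43 genes together received 140203 to 651604 counts per library. Of the 43, 41 had at least 1000 counts in every library. The exceptions were RPL23A and RPL19, and RPL19 reached only 67 counts in its lowest library. Ribosomal protein genes have many near-identical pseudogene copies, and how fragments matching several places were handled is not known here. The counts of every gene named below carry that uncertainty, and fold changes within a gene were compared, not levels between genes, since coding lengths were not at hand. The scaling factors (TMM) that edgeR gave to library totals ran from 0.895 to 0.951 in resting, 0.997 to 1.05 in 5 h and 1.05 to 1.06 in 12 h libraries. Values in CPM below are counts scaled to a library of 1000000, using these scaled totals.

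The large subunit genes took up a smaller share of all footprints after activation. Their summed counts made up 4.35%, 4.28% and 4.08% of the counts in the resting libraries, 3.61%, 3.56% and 3.52% at 5 h, and 3.11%, 3.23% and 3.23% at 12 h. Every 5 h library was below every resting library, and every 12 h library was below every 5 h library. The means were 4.24% ± 0.139 (SD, n = 3), 3.56% ± 0.0422 and 3.19% ± 0.0700. The mean fell by 16.0% from resting to 5 h and fell by 24.9% from resting to 12 h, and was lower by a log2 ratio of -0.16 at 12 h than at 5 h. Against the TMM-scaled total in place of the plain total, these log2 ratios went from -0.25 to -0.40 at 5 h and from -0.41 to -0.60 at 12 h. Footprints of a bulk culture are relative: fewer ribosomes on these mRNAs, less mRNA per cell and more footprints on other genes cannot be told apart.

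**Figure D1:**
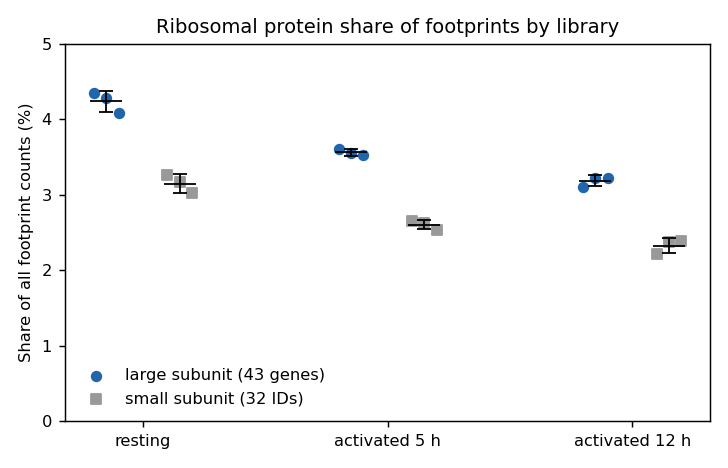
Share of all footprint counts (%, vertical axis) taken by the large subunit genes (circles) and by a list of small subunit genes (squares) in each of the 9 libraries, with the mean and SD of each group (n = 3). Large subunit shares lie between 4.08% and 4.35% in resting, 3.52% and 3.61% in 5 h, and 3.11% and 3.23% in 12 h libraries.

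Genes of the small subunit were lower too. A list of 32 small subunit IDs, written from general knowledge and not checked against a table, took 3.15% ± 0.121 of counts in resting cells (n = 3), 2.60% ± 0.0654 at 5 h and 2.33% ± 0.0942 at 12 h. The ratio of large to small subunit counts was 1.347 ± 0.0103, 1.368 ± 0.0202 and 1.370 ± 0.0261 in these groups. The 5 h and 12 h ratios lay above the resting ones without overlap, by 1.56% and 1.72% of the mean, and overlapped each other. The gap at 12 h was narrow, with a lowest ratio of 1.35312 against a highest resting ratio of 1.35291. The log2 ratio to resting was 0.0223 at 5 h but 0.0100 without 5 h replicate 3, and 0.0246 at 12 h but 0.00869 without 12 h replicate 1. With 3 libraries against 3, an exact two-sided permutation test cannot go below 0.10, and none was run on these ratios.

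After 5 h, footprints on nearly all large subunit genes were lower than in resting cells. All 43 genes passed the filter on low counts, and 39 of them fell at an adjusted p under 0.05 (edgeR's quasi-likelihood test, Benjamini-Hochberg over 13920 IDs), against 18.4% of all IDs tested. None rose, against 16% of all IDs, and 4 were not called; no gene was higher at an unadjusted p under 0.05 either, and DESeq2 also called 0 higher. In 37 genes every 5 h library was below every resting library, against 22.6% of all IDs, and in none was every one above, against 23.1%. The median log2 fold change of the 43 genes was -0.42, beside 0.07 for all IDs tested. These genes are abundant, and the share that fell was itself high among abundant IDs: of 651 IDs that averaged at least 256 CPM and belonged to neither subunit's list, 49.6% fell and 17.7% rose, with a median of -0.21. Changes were of moderate size, since 5 of the 43 fell by more than 1.5-fold, a share near the 9.21% of all IDs.

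After 12 h the falls were larger. Against resting cells 40 of 43 genes fell, against 19.3% of all IDs tested, 1 rose, against 15.8%, and 2 were not called. All 40 that fell had groups without overlap, against 23.7% of all IDs, and no gene had all 12 h libraries above the resting ones, against 22.1%. The median log2 fold change was -0.69, -37.8% as a percentage, beside 0.04 for all IDs and -0.19 for the 651 abundant IDs, of which 47.5% fell and 18% rose. Falls of more than 1.5-fold were seen in 28 genes, against 11.4% of all IDs. The comparisons at 5 h and 12 h share the resting libraries and are not independent of each other.

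The size of these changes depended on the scaling. With plain library totals, a setting added after the data were seen, 28 genes fell and 1 rose at 5 h, and 36 fell and 1 rose at 12 h, with medians of -0.27 and -0.49. That setting moved the median of all IDs from 0.07 to 0.22 at 5 h and from 0.04 to 0.23 at 12 h. It also changed the split of all calls, from 2567 lower and 2230 higher to 1756 and 3112 at 5 h, and from 2683 and 2204 to 1671 and 3497 at 12 h.

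**Figure D2:**
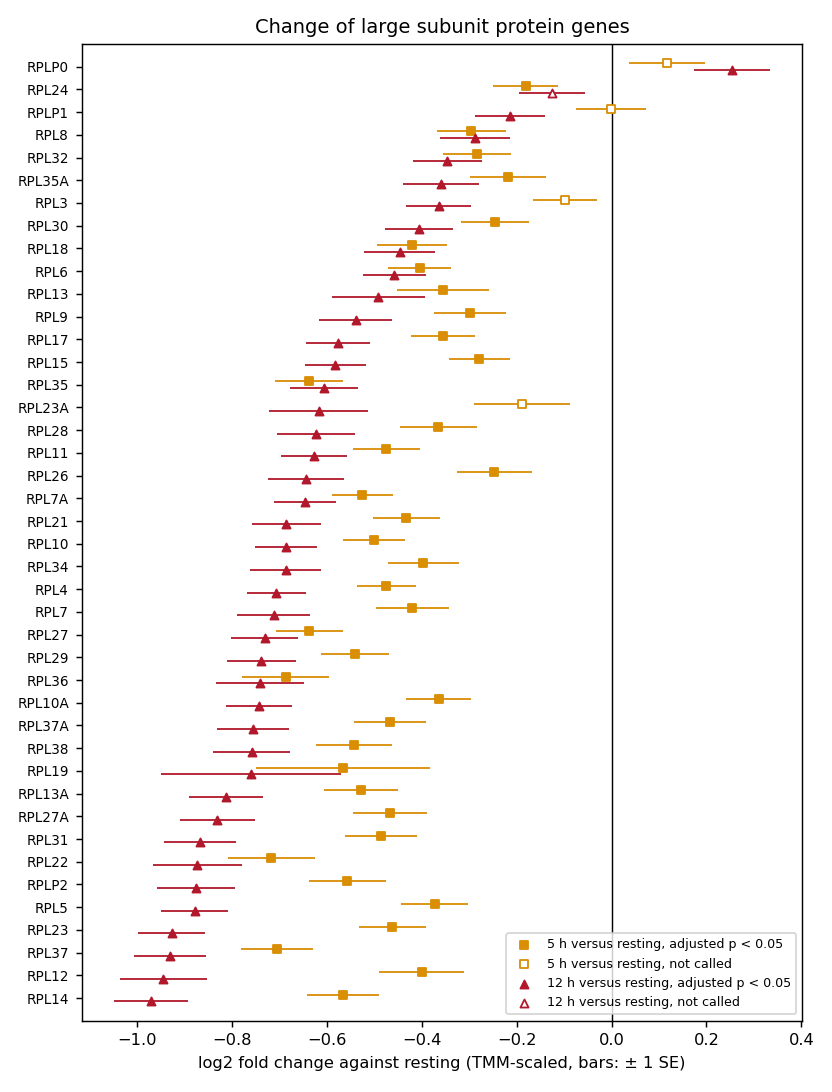
log2 fold change against resting (horizontal axis) for 42 of the 43 genes at 5 h (squares) and 12 h (triangles), with bars of 1 SE from edgeR's fit and open symbols where the adjusted p was 0.05 or above. Genes are ordered by the 12 h value, from RPLP0 (0.25) at the top to RPL14 (-0.97) at the bottom.

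The libraries of a group moved together. Taking each gene's log2 ratio to its own resting mean, the median over the 43 genes was -0.45, -0.43 and -0.40 in the 5 h libraries and -0.71, -0.66 and -0.65 in the 12 h libraries. At most 2 genes lay above their resting mean in any activated library. The median coefficient of variation of the genes' CPM was 8.13% in resting, 5.13% in 5 h and 4.01% in 12 h libraries.

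**Figure D3:**
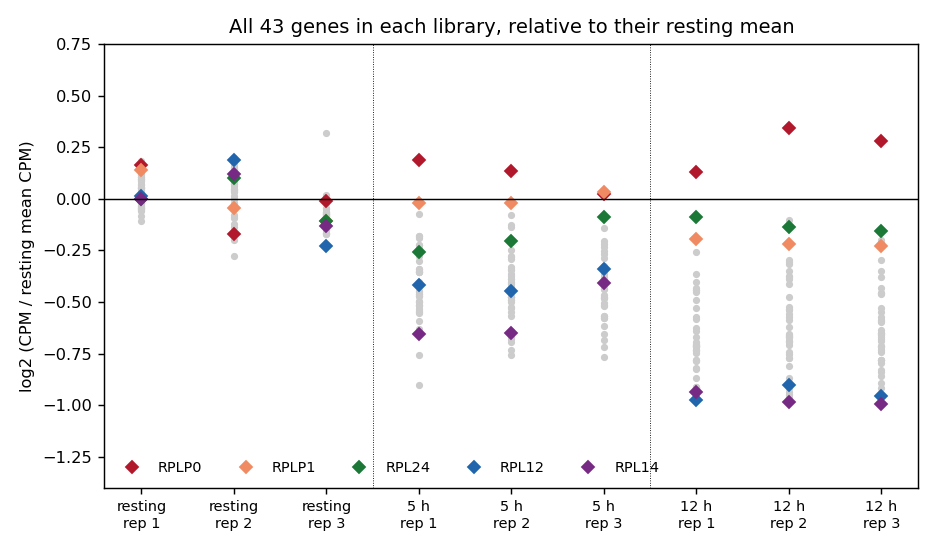
log2 of CPM over the gene's resting mean (vertical axis) for all 43 genes (grey points) in each of the 9 libraries, with 5 genes in colour. RPLP0 lies above 0 in every activated library, while RPL12 and RPL14 lie among the lowest values in the 12 h libraries.

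The genes of the stalk that recruits elongation factors did not move together. RPLP0 anchors it, pairs of RPLP1 and RPLP2 hang from RPLP0 and carry the tails that touch elongation factors, and RPL12 sits at its base. RPLP0 (ENSG00000089157) gave 1167, 925 and 1035 CPM in resting cells, 1187, 1144 and 1060 at 5 h, and 1141, 1322 and 1264 at 12 h. Its 12 h libraries were mostly higher, but the lowest of them was below the highest resting one. The log2 fold change was 0.12 ± 0.08 (SE) at 5 h, adjusted p = 0.273, and 0.25 ± 0.08 at 12 h, adjusted p = 0.0163. RPLP0 was thus the 1 gene of the 43 called higher at 12 h, at the chosen threshold. That call was lost without resting replicate 2 (log2 fold change 0.16, adjusted p = 0.111), resting replicate 3 (0.24, 0.0579), 12 h replicate 2 (0.19, 0.131) or 12 h replicate 3 (0.23, 0.0790). With plain library totals RPLP0 was called higher at 5 h too (0.26, adjusted p = 0.0183).

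RPLP1 and RPLP2, which work as a pair, diverged in size. RPLP2 (ENSG00000177600) gave 995, 942 and 820 CPM in resting cells, 629, 578 and 666 at 5 h, and 489, 477 and 535 at 12 h, with no overlap between resting and activated groups. It fell by 0.56 ± 0.08 on the log2 scale at 5 h (adjusted p = 9.05e-06) and fell by 0.88 ± 0.08 at 12 h (adjusted p = 1.36e-08). RPLP1 (ENSG00000137818) gave 742, 655 and 627 CPM in resting cells and 665, 666 and 691 at 5 h, which overlap. At 12 h it gave 589, 580 and 577 CPM, all below the resting libraries. Its log2 fold change was -0.00 ± 0.07 at 5 h (adjusted p = 0.988), with a sign that turns with the scaling, and -0.21 ± 0.07 at 12 h (adjusted p = 0.0277). The 12 h call was lost without resting replicate 1 (adjusted p = 0.166) or any 12 h replicate (0.0572, 0.0706 and 0.0806), and with plain library totals (-0.02, 0.807).

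The ratios of these genes within a library do not depend on scaling, and were chosen after the values were seen. Counts of RPLP1 over RPLP2 were 0.736 ± 0.0356 in resting cells (SD, n = 3), 1.08 ± 0.0608 at 5 h and 1.17 ± 0.0766 at 12 h. Both activated groups lay above the resting one, and overlapped each other. RPLP0 over RPLP2 was 1.14 ± 0.143, 1.82 ± 0.202 and 2.49 ± 0.245, with no overlap between any groups. These are ratios of footprints, not of protein copies. No test was made of the difference between RPLP0 or RPLP1 and the other genes.

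RPL12, at the stalk's base, fell in both steps. RPL12 (ENSG00000197958) gave 524, 591 and 444 CPM in resting cells, 389, 381 and 410 at 5 h, and 264, 278 and 268 at 12 h. No group overlapped another, and the 12 h libraries were close together. It fell by 0.40 ± 0.09 on the log2 scale at 5 h (adjusted p = 0.00115) and fell by 0.95 ± 0.09 at 12 h (adjusted p = 2.16e-08). Its share of the 43 genes' counts was 1.13% in resting cells and 1.13% at 5 h, and 0.893% at 12 h.

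**Figure D4:**
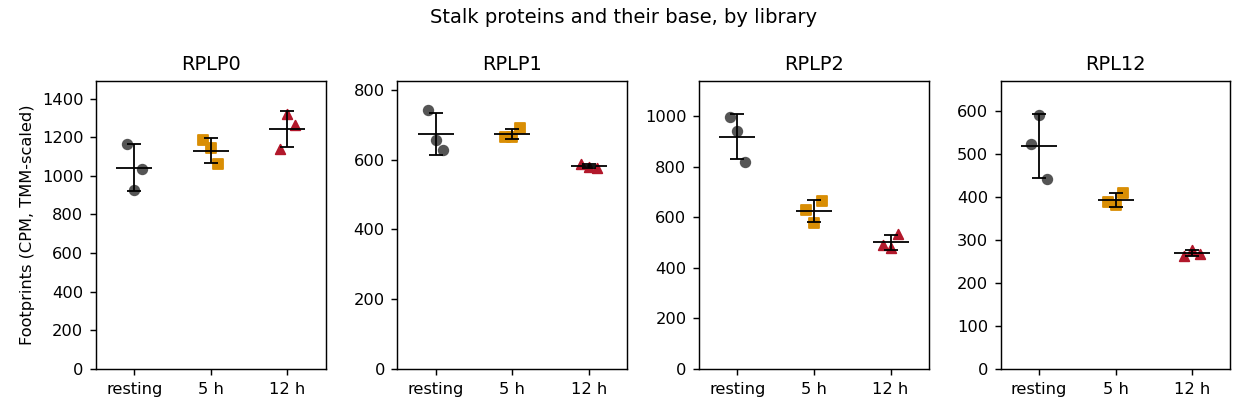
Footprints (CPM on TMM-scaled totals, vertical axis from 0) of RPLP0, RPLP1, RPLP2 and RPL12 in each library, with the mean and SD of each group (n = 3). RPLP2 and RPL12 step down from resting to 5 h and 12 h, RPLP1 overlaps between resting and 5 h, and RPLP0 is highest in 2 of the 12 h libraries, with groups that overlap.

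The proteins of the 5S particle both fell at 5 h and 12 h. RPL5 and RPL11 bind the 5S ribosomal RNA, and when free of ribosomes they also bind MDM2, the main inhibitor of p53. RPL5 gave 1690, 1886 and 1567 CPM in resting cells, 1245, 1365 and 1361 at 5 h, and 909, 940 and 947 at 12 h, with no overlap between groups. It fell by 22.8% at 5 h (log2 fold change -0.37 ± 0.07) and fell by 45.6% at 12 h (-0.88 ± 0.07, adjusted p = 1.04e-09). RPL11 gave 1299, 1316 and 1138 CPM in resting cells, 908, 867 and 925 at 5 h, and 842, 795 and 791 at 12 h. It fell at both times (-0.47 ± 0.07 and -0.63 ± 0.07), and its 12 h libraries were all below its 5 h libraries without passing the test (-0.15 ± 0.07, adjusted p = 0.120).

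Proteins that reach toward the catalytic centre fell in 3 of 4 cases at 5 h and in 4 of 4 at 12 h. Of all 43 genes, 39 and 40 fell at these times, and of all IDs tested 18.4% and 19.3%. RPL4, which also lines the exit tunnel, gave 2122, 2361 and 2082 CPM in resting cells, 1548, 1560 and 1617 at 5 h, and 1332, 1358 and 1332 at 12 h. It fell at both times, with log2 fold changes of -0.47 ± 0.06 and -0.71 ± 0.06. RPL10, one of the last proteins to join the maturing subunit, fell too (-0.50 ± 0.06 at 5 h and -0.69 ± 0.07 at 12 h). RPL8 fell by a log2 fold change of -0.30 ± 0.07 at 5 h and of -0.29 ± 0.07 at 12 h, calls that were lost with plain library totals (adjusted p = 0.118 and 0.306). RPL3, whose loop approaches the catalytic centre, gave 1112, 993 and 1067 CPM in resting cells, 1004, 1001 and 959 at 5 h, and 779, 856 and 830 at 12 h. Its resting and 5 h groups overlapped (-0.10 ± 0.07, adjusted p = 0.282, and 0.05 with plain library totals), and it fell by 0.36 ± 0.07 at 12 h (adjusted p = 0.000175).

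Chaperones and the signal recognition particle dock on the new chain around the mouth of the exit tunnel. Of the 6 genes there, 5 fell at 5 h and 6 at 12 h, beside 39 and 40 of all 43 genes. Over all IDs tested, 18.4% and 19.3% fell at these times. RPL35 had most of its change by 5 h, with log2 fold changes of -0.64 ± 0.07 at 5 h and -0.61 ± 0.07 at 12 h. RPL31 gave 1686, 1906 and 1568 CPM in resting cells, 1110, 1269 and 1305 at 5 h, and 976, 924 and 925 at 12 h, and fell at both times (-0.49 ± 0.08 and -0.87 ± 0.08). RPL17 fell as well (-0.36 ± 0.07 and -0.58 ± 0.07). RPL26, known also for binding p53 mRNA, fell less at 5 h (-0.25 ± 0.08) than at 12 h (-0.64 ± 0.08). Its 5 h call was lost without resting replicate 2 (adjusted p = 0.0651), without 5 h replicate 1 (0.0743) and with plain library totals (-0.10, 0.274). RPL23A, a docking point of the signal recognition particle, was not called at 5 h (-0.19 ± 0.10, adjusted p = 0.159) and fell by 0.62 ± 0.10 at 12 h. RPL19 rested on few counts, and its fall of 0.57 ± 0.18 at 5 h (adjusted p = 0.0189) was lost without resting replicate 3 (adjusted p = 0.149), 5 h replicate 2 (0.0662) or 5 h replicate 3 (0.0664), and with plain library totals (0.0935).

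The proteins on the face that joins the small subunit differed in size of change. RPL23 gave 1447, 1591 and 1367 CPM in resting cells, 1002, 1054 and 1141 at 5 h, and 778, 760 and 777 at 12 h. No group overlapped, and the fall was 0.46 ± 0.07 on the log2 scale at 5 h and 0.93 ± 0.07 at 12 h (adjusted p = 4.56e-10). RPL24, which forms a bridge between the subunits, gave 1236, 1326 and 1148 CPM in resting cells, 1035, 1071 and 1165 at 5 h, and 1165, 1126 and 1108 at 12 h. Its groups overlapped at both times. Its log2 fold change was -0.18 ± 0.07 at 5 h, past the threshold with an adjusted p of 0.0459, and -0.13 ± 0.07 at 12 h (adjusted p = 0.171), where plain library totals gave 0.07. The 5 h call was lost without resting replicate 1 or 2, 5 h replicate 1 or 2, or any 12 h replicate, at adjusted p of 0.0568 to 0.157. It was also lost with no low-count filter (0.0637), with only the 6 libraries compared (0.0652), with a replicate block (0.0697) and with plain library totals (log2 fold change -0.04, adjusted p = 0.653). RPL10A, the protein of the L1 stalk, which guides spent transfer RNA out of the ribosome, fell by 22.3% at 5 h and fell by 40.3% at 12 h.

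Of the 24 remaining genes, 24 fell at 5 h and 23 at 12 h, with median log2 fold changes of -0.43 and -0.69. These values are near those of all 43 genes, of which 39 and 40 fell, with medians of -0.42 and -0.69. Over all IDs tested, 18.4% and 19.3% fell. RPL22, whose loss in mice is known to arrest development of T cells with alpha-beta receptors, gave 670, 792 and 619 CPM in resting cells, 371, 428 and 466 at 5 h, and 381, 367 and 388 at 12 h. It fell by 39.2% at 5 h (log2 fold change -0.72 ± 0.09, adjusted p = 1.63e-06) and fell by 45.4% at 12 h (-0.87 ± 0.09), and its 5 h and 12 h groups overlapped. RPL14 gave 1538, 1671 and 1401 CPM in resting cells, 976, 978 and 1159 at 5 h, and 803, 778 and 771 at 12 h. It fell by 32.5% at 5 h and fell by 49.0% at 12 h (-0.97 ± 0.08, adjusted p = 9.25e-10), the lowest 12 h value among the 43 genes. RPL37 gave 913, 1057 and 884 CPM in resting cells, 563, 595 and 592 at 5 h, and 506, 498 and 493 at 12 h, and fell at both times (-0.71 ± 0.08 and -0.93 ± 0.08).

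Several others of these 24 were low already at 5 h. At that time the log2 fold change was -0.69 ± 0.09 for RPL36, -0.64 ± 0.07 for RPL27, -0.54 ± 0.08 for RPL38 and -0.54 ± 0.07 for RPL29. In each of these 4 genes every 5 h library was below every resting library, which the rule for naming them required. RPL38 is known for its part in the translation of Hox mRNAs in mouse embryos. RPL13A, which can leave the ribosome and hold back translation of inflammatory mRNAs in myeloid cells, fell by 0.53 ± 0.08 at 5 h and fell by 0.81 ± 0.08 at 12 h. RPL27A fell at both times (-0.47 ± 0.08 and -0.83 ± 0.08).

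Between 5 h and 12 h, 25 of the 43 genes fell further, against 13.5% of all IDs tested, none rose, against 11.6%, and 18 were not called. No gene was higher at an unadjusted p under 0.05 in edgeR's test, and DESeq2 called 0 higher. In 30 genes every 12 h library was below every 5 h library, against 20.8% of all IDs, and in none was every one above, against 18.3%. The median log2 difference was -0.22, beside -0.05 for all IDs and -0.00 for the 651 abundant IDs, of which 26.3% fell and 19.2% rose. No gene fell by more than 1.5-fold in this step, against 8.07% of all IDs. The count of 25 rested in part on 1 library, since 14 genes were called without 5 h replicate 3. That library had the most counts, and without it calls were fewer over all IDs too, of which 9.17% fell.

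From 5 h to 12 h the log2 difference was -0.54 ± 0.09 for RPL12 (adjusted p = 7.23e-05), -0.51 ± 0.07 for RPL5 (adjusted p = 7.66e-06) and -0.47 ± 0.07 for RPL23 (adjusted p = 2.36e-05). It was -0.43 ± 0.10 for RPL23A, -0.40 ± 0.08 for RPL14, -0.40 ± 0.08 for RPL26, -0.38 ± 0.08 for RPL31, -0.38 ± 0.07 for RPL10A and -0.36 ± 0.08 for RPL27A, and all 9 fell. RPLP2 fell by 0.32 ± 0.08, a call lost without 5 h replicate 3 (-0.24, adjusted p = 0.0653). RPL22, RPL36, RPL27 and RPL35 were not called in this step, with log2 differences of -0.16 ± 0.09, -0.05 ± 0.09, -0.09 ± 0.07 and 0.03 ± 0.07. All 4 were among the 10 largest falls at 5 h. Both comparisons use the 5 h libraries, so genes picked for low 5 h values tend to show smaller later falls.

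Genes with and without a TOP-like annotated start both fell. The 25 genes with such a start had a median log2 fold change of -0.47 at 5 h and -0.69 at 12 h, with a range at 12 h from -0.97 (RPL14) to 0.25 (RPLP0). The 10 genes with starts in the table but no such tract had medians of -0.36 and -0.58. The ranges of these sets overlapped at both times, and the difference was not tested. In some of the 10 genes, such as RPL10A and RPL19, a longer run of pyrimidines lay within a few bases of an annotated start. The split therefore depends on where the start is annotated.

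Other lists gave a setting for these values, again as IDs written from general knowledge. Of the 32 small subunit genes, 29 fell at 5 h, 30 at 12 h and 18 from 5 h to 12 h, and none rose (0 at an unadjusted p under 0.05 by edgeR), with medians of -0.43, -0.68 and -0.25. Among 8 tested paralogs and further large subunit genes outside the 43, 2, 5 and 1 fell, with medians of -0.19, -0.36 and -0.15, where 18.4%, 19.3% and 13.5% of all IDs fell. With so few genes, the 2 of 8 and the 1 of 8 are near those shares. Among 7 translation factor and related genes whose mRNAs are known TOP mRNAs, 2 fell and 1 rose at 5 h, 5 fell and 1 rose at 12 h, and 2 fell in the later step, with medians of -0.14, -0.31 and -0.11. At 5 h 18.4% of all IDs fell and 16% rose, and the 5 h counts of this list are near those shares. Differences between these lists were not tested.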

How the data were processed

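Whole-number footprint counts per Ensembl gene ID were used as deposited for 9 libraries. Per the submitters' processing notes, the build was GRCh38.p13 and the tools were DESeq2, RSEM, bedtools, Bowtie and cutadapt 3.2, without their roles; how multiply matching fragments were treated is not known here. The deposited log2 table equals log2 of the count over a size factor plus 1, within 5.03e-09, and served as an alternative.

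Groups were taken from the labels. All 9 libraries entered 1 edgeR 4.0.16 quasi-likelihood fit (R 4.3.3) with TMM scaling and filterByExpr, which kept 13920 of 19569 IDs. Calls used an adjusted p under 0.05 over all tested IDs. The script was tested on simulated data. Alternatives used limma 3.58.1, DESeq2 1.42.0, other scalings and filters, a replicate block, and leaving out each library. Replicates of each group differed beyond sampling noise.

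The genes, their structural groups and the lists were chosen with earlier results of these data known. Named genes were, per comparison, the 10 largest changes among called genes with groups that do not overlap, plus RPLP0, RPLP1, RPLP2, RPL12, RPL5, RPL11, RPL10A, RPL3, RPL4, RPL8, RPL10, RPL22 and RPL13A; RPL24, RPL17 and the 5 h and 12 h values of other genes were added after their values were seen. Abundant IDs as a background were also added then. Footprints per codon, and lists without IDs, were not analysed here. The values of 1 of the 43 genes are not reported here by name; it is kept in the sums and counts.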

Additional observations from a re-analysis of the deposited data

Results flagged for a closer look

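The change from resting differed between 5 h and 12 h, by the edgeR contrast of the 12 h and 5 h libraries, in 18 of the genes named. It is the same contrast as that given above, in which 13.5% of all IDs tested fell and 11.6% rose. The naming rule took 10 of the 18 from this contrast as called genes, so that the count of 18 was partly fixed by the rule. On the log2 scale the 12 h change minus the 5 h change was -0.54 for RPL12, -0.51 for RPL5, -0.47 for RPL23, -0.43 for RPL23A, -0.40 for RPL14, -0.40 for RPL26, -0.38 for RPL31, -0.38 for RPL10A, -0.36 for RPL27A and -0.32 for RPLP2. It was -0.29 for RPL13A, -0.27 for RPL3, -0.23 for RPL4, -0.23 for RPL37, -0.22 for RPL17, -0.21 for RPLP1, -0.20 for RPL29 and -0.19 for RPL10. Adjusted p ranged from 7.66e-06 (RPL5) to 0.0491 (RPL29). All 18 were lower at 12 h. Of 18 alternatives, RPL29 lost its call in 14 (adjusted p = 0.05001 to 0.289), RPL10 in 12 (0.0581 to 0.156), RPLP1 in 9 (0.0524 to 0.192), RPL37 in 7 (0.0636 to 0.137) and RPL17 in 4 (0.0635 to 0.100). RPLP2 (0.0653) and RPL4 (0.0653) each lost it in 1, without 5 h replicate 3, and RPL13A (0.0798) in 1, without 12 h replicate 1. Without 5 h replicate 3, or without 12 h replicate 1, RPL29, RPL10, RPLP1, RPL37 and RPL17 lost it too.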

How the results depend on the processing

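Over 18 alternatives (all but the test against a minimum fold), 28 of the 39 calls at 5 h, 36 of the 41 at 12 h and 13 of the 25 from 5 h to 12 h held in each. Genes were also tested against a minimum change of 1.5-fold (glmTreat). In that test 0 of the 43 were lower at 5 h, against 3.2% of all IDs, and 11 at 12 h, against 4.3%. From 5 h to 12 h 0 were lower, against 2.9%, and at 12 h 0 were higher than in resting cells, against 3.8%. With plain library totals 1 gene was called higher at 5 h, against 22.4% of all IDs, and the medians were -0.27 at 5 h and -0.49 at 12 h. Over TMM-scaled totals the log2 ratios of the summed share were -0.40, -0.60 and -0.21. Leaving out 1 library gave 0 to 1 genes higher at 12 h, against 12.0% to 15.1% of all IDs. From 5 h to 12 h it gave 14 to 26 genes lower, against 9.17% to 13.8% of all IDs. Signs turned only for small values that were not called. RPLP1 at 5 h was 0.0192 with upper quartile scaling, 9.98e-04 with a replicate block, 0.143 with plain totals and -0.0597 to 0.0657 with a library left out. RPL3 at 5 h was 0.0465 with plain totals. RPL8 from 5 h to 12 h was -0.00986 with no filter, and -0.0391 to 0.0549 with a library left out. The cause was not tested. Deviations of same-numbered libraries from their group means, over all tested IDs, had correlations of -0.0625 to 0.0901. These cannot exclude that the numbers pair libraries, since noise in low counts can hide a shared deviation. The labels do not say whether they pair them. The replicate block called 37, 40 and 22 genes lower in the 3 comparisons. Footprints per codon could not be computed and was not run. No ID had counts identical to one of the 43 genes, so leaving such genes out was not run. RPL19 had the fewest counts of the 43 genes, and its SE was 0.18 to 0.19. Why its counts were low was not tested.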
